A study of Mus musculus with 9 samples.

Results

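The IGF axis and the insulin receptor substrates were followed at the RNA level in cultured heart muscle cells of newborn mice. The 10 genes are the ligand Igf1, the receptors Igf1r and Insr, the adaptors Irs1 and Irs2, and the IGF-binding proteins Igfbp2, Igfbp3, Igfbp4, Igfbp5 and Igfbp7. They were taken by gene name from the 55401 genes of the deposited table, where each name occurs once. All 10 were among the 16762 genes with enough counts to be tested.

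The RNA-seq study has 9 libraries of poly(A)-enriched RNA from primary neonatal mouse ventricular myocytes (NMVMs), 3 in each of 3 groups, and asks how these cells respond to hypoxia and to added serglycin, a secreted proteoglycan. All cells came from wild-type C57BL/6J pups aged 1 day and were grown in DMEM with 10% fetal bovine serum. The control group stayed in complete medium at normal oxygen. The hypoxia group was washed, changed to DMEM without glucose and serum, and kept for 6 h in a closed chamber made anaerobic with an AnaeroPack. The hypoxia + rSRGN group was treated in the same way with recombinant serglycin (rSRGN) in the medium. Low oxygen, loss of glucose and loss of serum therefore cannot be told apart in any comparison with control, and serum itself contains insulin-like growth factors. The labels do not say whether libraries of a group came from separate cultures or litters, so p-values measure the spread between these libraries, which may be technical.

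Insulin-like growth factors bind the receptor tyrosine kinase encoded by Igf1r, and insulin binds the related receptor encoded by Insr. Both receptors phosphorylate the docking proteins IRS1 and IRS2, which recruit PI3-kinase and start AKT signalling, a pathway known for growth and survival of cardiomyocytes. Secreted IGF-binding proteins hold the ligands outside the cell and lengthen or limit their action, and IGFBP7 binds them only weakly.

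Library totals ran from 21669017 to 22781557 counts in control, from 16583985 to 18148474 in hypoxia and from 16640239 to 20826701 in hypoxia + rSRGN. Levels are given as counts scaled to library size (CPM, with TMM factors) and divided by gene length in kilobases (CPM per kilobase). The 15 cardiomyocyte markers, with Actc1 the most abundant, summed to 17540, 19620 and 20550 CPM per kilobase in the control libraries, 2555, 2110 and 1506 in hypoxia, and 3648, 3287 and 3129 in hypoxia + rSRGN. The 12 fibroblast markers, led by Col1a1, summed to 1720, 1939 and 1970 in control, 4210, 3867 and 4141 in hypoxia, and 4127, 4237 and 4215 in hypoxia + rSRGN. The labelled cell type thus led in control, while in every hypoxic library the fibroblast sum was above the cardiomyocyte sum. In such bulk samples, fewer cells of a type and less RNA per cell cannot be told apart.

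In hypoxia, the RNA of the insulin receptor and of Igfbp5 fell steeply, Igf1r stayed near its control level, and both adaptors and the other 4 binding proteins rose. A gene was called at a Benjamini-Hochberg adjusted p below 0.05 in the edgeR quasi-likelihood test over all tested genes and a fold change of at least 1.5. By this rule 8 of the 10 genes were called for hypoxia against control, 6 higher and 2 lower. Over all tested genes 51.6% were called, 26.4% higher and 25.1% lower. The median log2 fold change of the 10 genes was 0.91, and that of all tested genes was 0.05.

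**Figure D1:**
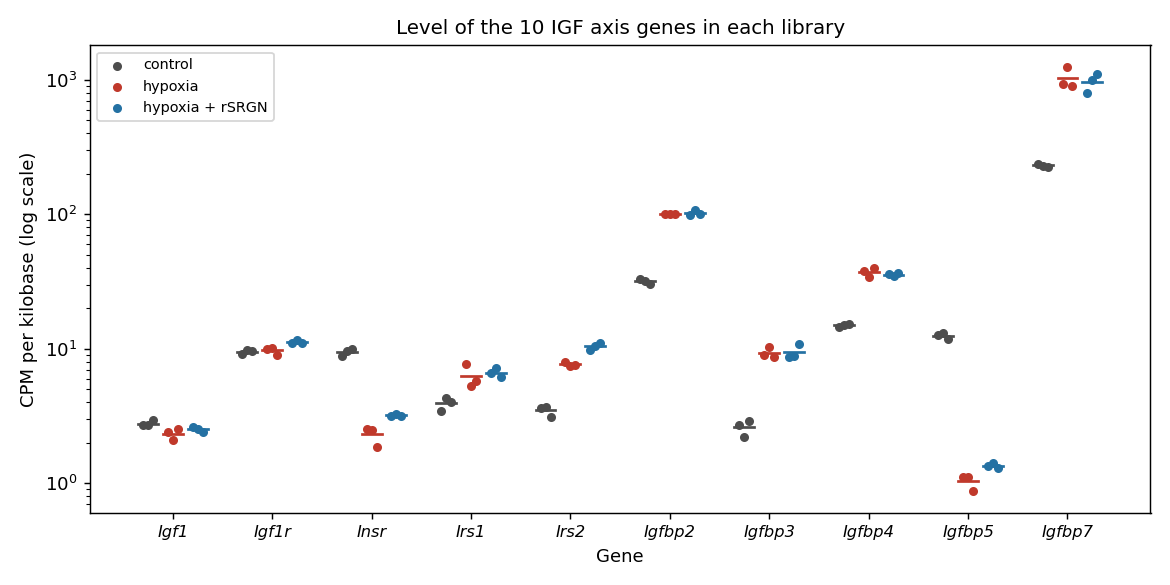
Level of each of the 10 genes in the 9 libraries, in CPM per kilobase on a log scale, with points for libraries, colours for groups and a bar for the mean of each group. Insr and Igfbp5 are lower in all hypoxic libraries than in control, Igfbp2, Igfbp3, Igfbp4 and Igfbp7 are higher, and Igf1r and Igf1 differ little.

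Igf1 encodes the growth factor itself. Its level was 2.70, 2.70 and 2.93 CPM per kilobase in the control libraries, 2.41, 2.08 and 2.52 in hypoxia, and 2.63, 2.54 and 2.42 in hypoxia + rSRGN. Each hypoxia library was below each control library, by a narrow margin, and the 2 hypoxic groups overlapped. The log2 difference from control was -0.25 ± 0.10 (SE, n = 3 per group; 95% interval -0.46 to -0.04; edgeR adjusted p = 0.0304), short of the 1.5-fold limit. The adjusted p missed 0.05 in 3 of 16 alternative settings and reached 0.129. Among 10844 protein-coding genes with at least 5 CPM, the profiles over the 9 libraries nearest to that of Igf1 were those of Serpinb9 and Fhl1, at Euclidean distances of 0.150 and 0.154 on the log2 scale.

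The receptors parted. Insr (ENSMUSG00000005534.10, GRCm38 chr8:3122061-3279617, minus strand) measured 8.88, 9.55 and 9.89 CPM per kilobase in control, 2.55, 2.51 and 1.85 in hypoxia, and 3.16, 3.27 and 3.15 in hypoxia + rSRGN. The 3 groups did not overlap, with control highest and hypoxia lowest. The receptor fell 4.10-fold in hypoxia (log2 fold change -2.03 ± 0.10; edgeR adjusted p = 2.55e-14).

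Igf1r (chr7:67952827-68233668, plus strand) measured 9.11, 9.74 and 9.67 CPM per kilobase in control, 9.97, 10.2 and 8.95 in hypoxia, and 10.96, 11.71 and 10.97 in hypoxia + rSRGN. Control and hypoxia overlapped, and the hypoxia + rSRGN libraries lay above both. The log2 difference between hypoxia and control was 0.03, with a 95% interval from -0.12 to 0.18, and its sign was not stable: it was -0.02 without control replicate 1, -0.009 without hypoxia replicate 2, and -0.025 with a filter of at least 1 count over all libraries. The profiles nearest to that of Igf1r were those of Thoc6 and Sec14l1, at distances of 0.118 and 0.135.

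In control the 2 receptor RNAs were about level per length, with Igf1r to Insr ratios of 1.03, 1.02 and 0.977. The ratio was 3.91, 4.07 and 4.83 in hypoxia and 3.47, 3.58 and 3.49 in hypoxia + rSRGN. The 3 groups did not overlap. The mean log2 ratio was 2.08 higher in hypoxia than in control, and 0.27 lower in hypoxia + rSRGN than in hypoxia (exact permutation test, two-sided, p = 0.1 for each, the smallest that 3 against 3 libraries can give; 0.12 after adjustment over 6 ratio tests).

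IRS1 and IRS2 are the docking proteins that carry the receptor signal to PI3-kinase. Irs2 (ENSMUSG00000038894.7, chr8:10984681-11008458, minus strand) measured 3.61, 3.69 and 3.12 CPM per kilobase in control, 7.94, 7.49 and 7.60 in hypoxia, and 9.87, 10.47 and 10.95 in hypoxia + rSRGN. The 3 groups were fully separated, in that order. In hypoxia Irs2 rose 2.21-fold over control (log2 fold change 1.14 ± 0.09; edgeR adjusted p = 1.34e-10). Klf10 and B4galt5 had the nearest profiles, at distances of 0.277 and 0.291, and log2 fold changes of 1.31 and 1.22 in hypoxia against control.

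Irs1 (chr1:82233101-82291416, minus strand) measured 3.42, 4.31 and 4.04 CPM per kilobase in control, 7.76, 5.31 and 5.78 in hypoxia, and 6.57, 7.13 and 6.19 in hypoxia + rSRGN. Both hypoxic groups were above control and overlapped each other, and hypoxia replicate 1 was the highest of all. Irs1 rose 1.61-fold in hypoxia (log2 fold change 0.68 ± 0.12; edgeR adjusted p = 1.98e-05). This call rested on single libraries: the log2 fold change was 0.57 without control replicate 1 and 0.50 without hypoxia replicate 1, both under the 1.5-fold limit, which left 7 genes called. Of its 9144 exon bases, 2822 (30.9%) are shared with Gm9747 on the opposite strand, for which the table has 0 counts. The counts were made without strand and, by the featureCounts default, without fragments that fall on 2 genes, so the level of Irs1 per length may be too low.

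The Irs2 to Irs1 ratio was 1.06, 0.857 and 0.772 in control, 1.02, 1.41 and 1.32 in hypoxia, and 1.502, 1.469 and 1.769 in hypoxia + rSRGN. Control and hypoxia overlapped (difference of mean log2 ratios 0.48, exact permutation p = 0.2), and hypoxia + rSRGN was above both (0.35 above hypoxia and 0.83 above control, exact permutation p = 0.1 for each). With both lengths cut to exon bases shared with no other gene, a scale added after the data were seen, every ratio is smaller by 1 factor. It would be 0.750, 0.608 and 0.548 in control, 0.726, 1.002 and 0.933 in hypoxia, and 1.066, 1.042 and 1.255 in hypoxia + rSRGN. How fragments lie along Irs1 in each library was not measured.

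Among the binding proteins, Igfbp7 was by far the most abundant RNA. Igfbp7 (ENSMUSG00000036256.13, chr5:77349240-77408041, minus strand) measured 238, 228 and 227 CPM per kilobase in control, 935, 1257 and 904 in hypoxia, and 803, 1002 and 1110 in hypoxia + rSRGN. Every hypoxic library was above every control library, and the 2 hypoxic groups overlapped. It rose 4.47-fold in hypoxia (log2 fold change 2.16 ± 0.12; edgeR adjusted p = 2.01e-13). Of its 1209 exon bases, 85 (7.03%) overlap Polr2b on the opposite strand, which had 11165 counts over the 9 libraries beside 151248 for Igfbp7.

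Igfbp5 (ENSMUSG00000026185.8, chr1:72857932-72874884, minus strand), whose protein is held in the extracellular matrix, moved the other way. It measured 12.6, 13.02 and 11.87 CPM per kilobase in control, 1.11, 1.12 and 0.868 in hypoxia, and 1.34, 1.42 and 1.29 in hypoxia + rSRGN. The 3 groups did not overlap. The RNA fell 12.1-fold in hypoxia (log2 fold change -3.60 ± 0.11; edgeR adjusted p = 2.88e-17), the steepest change among the 10 genes in this comparison.

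Igfbp2 (chr1:72824503-72852474, plus strand) is the neighbour of Igfbp5. The genes point towards each other with 5457 bases between their ends. Igfbp2 measured 33.0, 31.9 and 30.1 CPM per kilobase in control, 100.5, 100.7 and 100.3 in hypoxia, and 99.3, 108 and 101 in hypoxia + rSRGN. It rose 3.17-fold in hypoxia (log2 fold change 1.67 ± 0.07; edgeR adjusted p = 3.94e-15), so that these adjacent genes changed in opposite directions in the same libraries.

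Igfbp3 (chr11:7206086-7213923, minus strand) encodes the main carrier of IGFs in blood. It measured 2.69, 2.22 and 2.92 CPM per kilobase in control, 8.91, 10.3 and 8.73 in hypoxia, and 8.74, 8.90 and 10.8 in hypoxia + rSRGN. It rose 3.58-fold in hypoxia (log2 fold change 1.84 ± 0.12; edgeR adjusted p = 1.15e-11). Igfbp1 lies 3539 bases from it on the same chromosome and had 0 counts in each of the 9 libraries. The profiles nearest to that of Igfbp3 were those of Jdp2 and Gadd45a, at distances of 0.311 and 0.336.

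Igfbp4 (chr11:99041244-99054392, plus strand) encodes a mainly inhibitory binding protein that the protease PAPP-A cuts. It measured 14.58, 15.02 and 15.39 CPM per kilobase in control, 37.9, 34.2 and 39.9 in hypoxia, and 35.9, 34.5 and 36.4 in hypoxia + rSRGN. It rose 2.49-fold in hypoxia (log2 fold change 1.32 ± 0.07; edgeR adjusted p = 4.35e-13). For Igfbp2, Igfbp3 and Igfbp4 alike, all hypoxic libraries were above all control libraries and the 2 hypoxic groups overlapped.

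The makeup of the binding protein RNAs shifted with these changes. Igfbp7 made up 78.9% ± 0.259 (SD, n = 3) of the summed CPM per kilobase of the 5 genes in control, 87.2% ± 2.06 in hypoxia and 86.5% ± 1.73 in hypoxia + rSRGN. Igfbp5 made up 4.28% ± 0.182, 0.0881% ± 0.0125 and 0.122% ± 0.0193 in the same order. Igfbp2 held 10.8%, 8.66% and 9.29%, although its own level rose. This lower share of Igfbp2 depends on the division by length. Without it, the mean share in hypoxia + rSRGN was above that in control. The libraries of both hypoxic groups then overlapped those of control. The shares of Igfbp7, Igfbp2, Igfbp4 and Igfbp5 in hypoxia did not overlap those in control (exact permutation p = 0.1 for each, the smallest possible; 0.167 after adjustment over 15 share tests), and those of Igfbp3 did (p = 0.3, exact permutation).

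The order of the 10 RNAs per length changed accordingly. In control it ran Igfbp7, Igfbp2, Igfbp4, Igfbp5, Igf1r, Insr, Irs1, Irs2, Igf1 and Igfbp3, where the neighbours Igf1r and Insr, Irs1 and Irs2, and Igf1 and Igfbp3 overlapped between libraries. In hypoxia Igfbp5 was last and Insr next to last, with overlaps between Igf1r and Igfbp3, Irs2 and Irs1, and Igf1 and Insr. In hypoxia + rSRGN, Irs2 and Igfbp3 were the neighbours that overlapped. The place of Irs1 depends on the length used. Per exon base shared with no other gene, a scale added after the data were seen, its mean would be 5.67 in control, 9.09 in hypoxia and 9.59 in hypoxia + rSRGN. Irs1 would then stand clear of Irs2 in control, above it with overlap in hypoxia, and next to Igfbp3 and above it in hypoxia + rSRGN, with overlaps between neighbours from Igf1r to Igfbp3 there.

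Addition of rSRGN to hypoxic cells gave small shifts. For hypoxia + rSRGN against hypoxia 0 of the 10 genes were called by edgeR, and 0 by DESeq2, beside 3.13% of all tested genes in edgeR, 2.27% higher and 0.859% lower. With an unadjusted p in edgeR the count stayed at 0 with the fold limit, beside 5.36% of all tested genes, and was 4 without it, beside 29.4%. The median log2 fold change of the 10 genes was 0.10 and that of all tested genes -0.03.

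The 4 genes were Insr, Irs2, Igfbp5 and Igf1r, in which every hypoxia + rSRGN library was above every hypoxia library. The same held for 16.5% of all tested genes (32% did not overlap, in either direction), and 16.6% had an adjusted p below 0.05 at any fold, so such shifts were common. Their log2 differences were 0.47 ± 0.10 for Insr, 0.44 ± 0.09 for Irs2, 0.39 ± 0.13 for Igfbp5 and 0.21 ± 0.07 for Igf1r, with edgeR adjusted p of 0.00241, 0.00133, 0.0368 and 0.0486. All are below 1.5-fold. For Insr and Irs2 the adjusted p stayed below 0.05 in all 16 alternatives, with highest values of 0.0183 and 0.00998. For Igfbp5 it did so in 12, up to 0.194, and for Igf1r in 6, up to 0.217.

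For the other 6 genes the groups overlapped, and the 95% intervals of the log2 difference were -0.09 to 0.32 for Igf1, -0.16 to 0.31 for Irs1, -0.11 to 0.18 for Igfbp2, -0.21 to 0.26 for Igfbp3, -0.22 to 0.08 for Igfbp4 and -0.32 to 0.14 for Igfbp7. A 1.5-fold change, 0.585 on the log2 scale, lies outside each of these intervals.

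**Figure D2:**
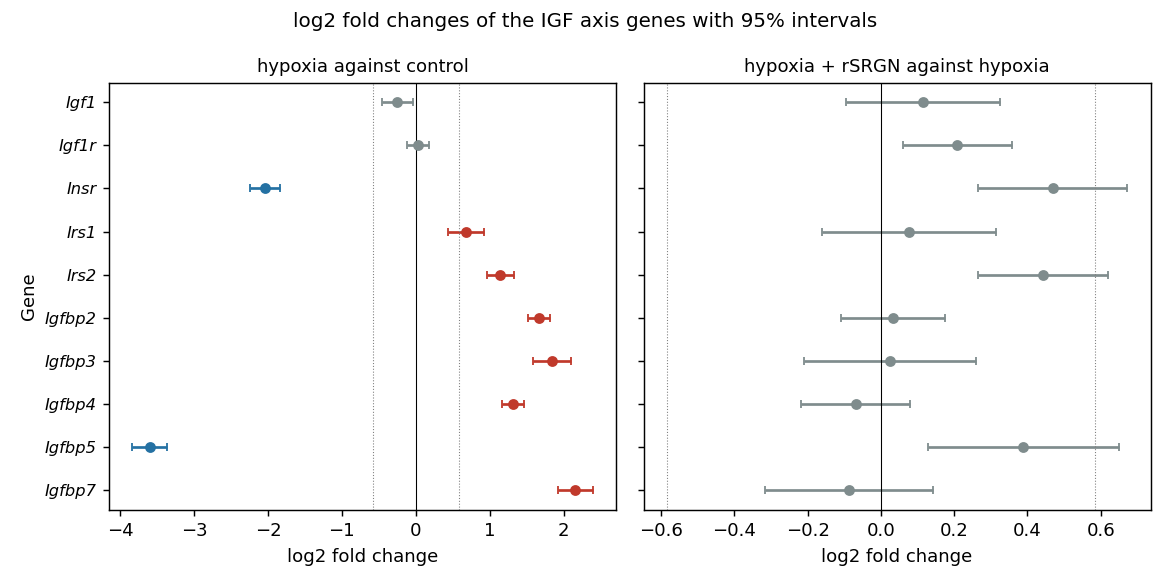
The log2 fold change of each of the 10 genes with its 95% interval from the edgeR fit, for hypoxia against control on the left and for hypoxia + rSRGN against hypoxia on the right, on axes of different range. Red and blue points were called higher and lower, grey points were not called, and dotted lines mark a 1.5-fold change. On the right, Insr, Irs2, Igfbp5 and Igf1r lie above 0 with their whole intervals.

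Hypoxia + rSRGN against control shares its control libraries with the first comparison and is set beside it. Again 8 of 10 genes were called, 6 higher and 2 lower, beside 48.8% of all tested genes, 24.1% higher and 24.7% lower. The log2 fold changes were -1.57 for Insr, -3.21 for Igfbp5, 0.76 for Irs1, 1.59 for Irs2, 1.70 for Igfbp2, 1.86 for Igfbp3, 1.25 for Igfbp4 and 2.07 for Igfbp7. For Igf1r the difference was 0.24 ± 0.07 (edgeR adjusted p = 0.00538), under the fold limit, and for Igf1 it was -0.13, with an interval from -0.34 to 0.07.

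All 15 cardiomyocyte markers fell in hypoxia, and the median of their log2 fold changes against control was -3.66. Of all tested genes 25.1% were called lower and 26.4% higher in hypoxia, which stands beside each count of markers here. After rSRGN 12 of 15 were called higher than in hypoxia, beside 2.27% of all tested genes, and all 15 differences were above 0, with a median of 0.77. Of the fibroblast markers, 9 of 12 were called higher in hypoxia and all 12 differences were above 0, with a median of 0.90. After rSRGN 1 of them, Tcf21, was called lower than in hypoxia, beside 0.859% of all tested genes. Macrophage markers, led by Lyz2, summed to 166, 173 and 176 CPM per kilobase in control, 15.4, 17.3 and 18.1 in hypoxia and 23.2, 21.1 and 18.7 in hypoxia + rSRGN, with 9 of 10 called lower in hypoxia and all 10 differences below 0. The part of these markers in the results for the IGF axis was not tested.

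Of 9 endothelial markers, led by Flt1, 5 were called lower in hypoxia (55.6%, beside 25.1% of all tested genes), while the differences of the other 4, Flt1 with 0.50 among them, were above 0 and not called. The summed level of the 9 was 19.7, 23.9 and 26.1 CPM per kilobase in control and 21.4, 17.3 and 18.9 in hypoxia. It was 21.0, 21.4 and 18.1 in hypoxia + rSRGN. Of 8 smooth muscle and pericyte markers, led by Acta2, 2 were called higher and 2 lower. Each is 25%, near the 26.4% and 25.1% of all tested genes. The sum of the 8 was 808, 899 and 980 in control, 955, 1096 and 1040 in hypoxia, and 862, 904 and 910.2 in hypoxia + rSRGN. Both sums overlapped between hypoxia and control. The smooth muscle and pericyte overlap rests on Des, which cardiomyocytes also express and which fell with them (log2 fold change -2.82). Without Des, a choice made after the data were seen, the sum was 637, 693 and 757 in control, 921, 1067 and 1018 in hypoxia, and 817, 862 and 867 in hypoxia + rSRGN, so the 3 groups did not overlap. That sum is mostly Acta2, with means of 631, 923 and 750 in the same order. Acta2 was not called in hypoxia (log2 fold change 0.55), and only 3 of the 8 differences from control were above 0. After rSRGN the endothelial gene Kdr, the pericyte gene Rgs5 and Des were called higher than in hypoxia. This is 11.1% of the endothelial list and 25% of the other, beside 2.27% of all tested genes. The neutrophil and erythroid lists had 0 tested genes, and Ly6g, Mpo and Retnlg had no counts in any library. The summed levels of these 2 lists reached at most 0.698 and 0.341 CPM per kilobase.

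Around the 10 genes, 65 of 74 listed genes of the pathway were tested, and 38 were called for hypoxia against control, 10 higher and 28 lower, and the median of their log2 fold changes was -0.40. In total 58.5% were called, beside 51.6% of all tested genes. By direction 15.4% were higher and 43.1% lower, beside 26.4% and 25.1% of all tested genes. Igf2, the other IGF ligand, fell (-1.10 ± 0.21), as did Igf2r (-0.87 ± 0.09), the receptor that clears IGF2. Ghr, the growth hormone receptor upstream of Igf1 in liver, had a difference of -0.09 (interval -0.25 to 0.06). The insulin genes Ins1 and Ins2 had 0 counts in every library.

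Igfbp6, a binding protein with preference for IGF2, rose (1.58 ± 0.13), and Igfbpl1 fell (-3.48 ± 0.76) at low counts of 26, 43 and 31 in control and 0, 6 and 1 in hypoxia. Of 6 genes for proteases that cut binding proteins and for their inhibitors, 2 rose and 1 fell, and these 50% are near the 51.6% of all tested genes called. Stc2, an inhibitor of the protease PAPP-A, rose (0.93 ± 0.12), its relative Stc1 fell (-1.01 ± 0.27), and Pappa, the gene of the protease itself, named after its value was seen, rose (0.78 ± 0.17). Htra1, the most abundant of the list, had a difference of -0.07 (interval -0.27 to 0.13).

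In the relay from adaptors to AKT and mTOR, 1 of 24 genes rose and 10 fell, which is 4.17% higher and 41.7% lower, beside 26.4% and 25.1% of all tested genes. The adaptors Gab1 and Grb2 fell (-1.78 ± 0.08 and -1.03 ± 0.08). Irs3 rose (2.53 ± 0.55) from 2, 4 and 5 counts in control to 26, 13 and 15 in hypoxia. Akt1 and Shc1, with differences of 0.31 and 0.58, stayed under the fold limit.

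Among 14 brakes on the pathway 3 rose and 5 fell, which is 21.4% higher and 35.7% lower, beside 26.4% and 25.1% of all tested genes. Grb14 and Grb10, which bind and inhibit the insulin and IGF1 receptors, fell (-2.75 ± 0.10 and -1.06 ± 0.07), as did the ubiquitin ligase Nedd4 (-0.63 ± 0.08). Trib3, an inhibitor of AKT, rose (1.09 ± 0.11).

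Most FOXO factors are held out of the nucleus when insulin and IGF signalling is active. Of 4, Foxo3 and Foxo4 fell (-0.90 ± 0.09 and -0.72 ± 0.10) and Foxo6 rose (1.98 ± 0.17), in a comparison where 51.6% of all tested genes were called. Of 12 genes that FOXO factors are known to raise, 2 rose (16.7%) and 7 fell (58.3%), beside 26.4% and 25.1% of all tested genes. The muscle ubiquitin ligase Trim63 fell most (-4.38 ± 0.10), Txnip and Pdk4 fell (-1.79 ± 0.10 and -2.03 ± 0.13), and Cited2 and Gadd45a rose (1.56 ± 0.11 and 1.84 ± 0.12).

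After rSRGN 2 of the 65 pathway genes (3.08%) were called, beside 3.13% of all tested genes, so the count is that of the background. Both were higher than in hypoxia: Igf2r (0.63 ± 0.09, edgeR adjusted p = 0.000137) and Pdk4 (0.69 ± 0.14, edgeR adjusted p = 0.00169). DESeq2 called 3. Both calls depended on single libraries through the fold limit. Without hypoxia replicate 3 the log2 differences were 0.55 for Igf2r and 0.58 for Pdk4, without hypoxia + rSRGN replicate 2 they were 0.58 and 0.55, and 0 genes were called in either case. Without hypoxia replicate 1, 5 were called.

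The usual transcriptional signs of low oxygen were mixed. Of 12 genes of the hypoxia response 4 rose (33.3%) and 6 fell (50%), beside 26.4% and 25.1% of all tested genes. In total 83.3% were called, beside 51.6% of all tested genes, and the median of the 12 log2 fold changes was -0.55. The control libraries themselves differed: the list summed to 446, 516 and 578 CPM per kilobase in control, 289, 316 and 288 in hypoxia, and 301, 288 and 308 in hypoxia + rSRGN. Within control, Bnip3 measured 13.1, 22.1 and 34.02 and Egln3 3.78, 8.40 and 18.7, both picked after their values were seen. Without control replicate 1, Egln3 was called too, 7 fell and the median was -0.87. Without control replicate 3, Slc2a1 lost its call, 5 fell and the median was -0.30. Ndrg1 rose (1.48 ± 0.11), Ldha, Slc2a1 and Pdk1 fell (-1.07 ± 0.08, -0.72 ± 0.13 and -3.07 ± 0.12), and Vegfa had a difference of -0.13 (interval -0.29 to 0.04). After rSRGN 0 of the 12 were called by edgeR or DESeq2, and 5 had an unadjusted p below 0.05 at any fold, beside 29.4% of all tested genes.

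Promoter windows from RefSeq (GRCm38.p6), the 250 bases before the annotated start, were found for 9 of the 10 genes and not for Insr. Igfbp5 is therefore the only gene among them that was called lower in hypoxia. They were searched on both strands for letters chosen after the fold changes were known: GTAAACA (FOXO factors), ACGTG (core of hypoxia response elements and of E-boxes), TGACGTCA (CREB), GGGCGG (SP1) and TATAAA (a core promoter box). Of 32851 windows of all genes, 3.17% hold the first, 16.6% the second, 1.55% the third, 32.7% the fourth and 12.4% the last. ACGTG occurs in 4 of the 9 genes, Irs1, Irs2, Igfbp2 and Igfbp7, which all rose in hypoxia, and not in Igfbp3 and Igfbp4, which rose as well. The 4 windows with it hold 67.2% to 74.0% G and C, against a median of 52.4% over all windows, so the shares over all windows are not those of windows alike in makeup. GGGCGG occurs in 5, the same genes and Igf1r, and TATAAA in Igfbp4. GTAAACA and TGACGTCA occur in 0 of the 9. A match of letters does not show a bound site. The windows of the genes that rose with ACGTG, and of Igfbp5, which fell beside Igfbp2, are shown with all matches in capitals. In Irs1, Irs2 and Igfbp2 the palindrome CACGTG holds ACGTG on both strands, with 4 shared letters. Igfbp2 has a further window, which holds none of these letters.
Irs1 (chr1:82291440-82291689, minus strand): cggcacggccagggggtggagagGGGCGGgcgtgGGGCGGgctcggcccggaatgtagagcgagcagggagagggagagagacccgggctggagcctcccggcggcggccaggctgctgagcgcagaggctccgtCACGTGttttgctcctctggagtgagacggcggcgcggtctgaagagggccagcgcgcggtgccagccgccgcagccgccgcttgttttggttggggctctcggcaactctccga
Irs2 (chr8:11008930-11009179, minus strand): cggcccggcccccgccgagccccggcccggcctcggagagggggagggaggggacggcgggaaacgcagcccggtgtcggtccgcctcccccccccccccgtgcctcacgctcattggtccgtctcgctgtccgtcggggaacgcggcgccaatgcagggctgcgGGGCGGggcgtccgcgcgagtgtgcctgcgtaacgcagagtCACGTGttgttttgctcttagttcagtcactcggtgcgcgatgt
Igfbp2 (chr1:72824230-72824479, plus strand): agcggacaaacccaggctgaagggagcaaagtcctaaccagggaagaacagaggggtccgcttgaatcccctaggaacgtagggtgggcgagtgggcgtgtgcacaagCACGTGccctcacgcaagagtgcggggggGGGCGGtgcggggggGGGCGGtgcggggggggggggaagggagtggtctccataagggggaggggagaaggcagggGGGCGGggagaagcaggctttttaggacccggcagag
Igfbp7 (chr5:77408046-77408295, minus strand): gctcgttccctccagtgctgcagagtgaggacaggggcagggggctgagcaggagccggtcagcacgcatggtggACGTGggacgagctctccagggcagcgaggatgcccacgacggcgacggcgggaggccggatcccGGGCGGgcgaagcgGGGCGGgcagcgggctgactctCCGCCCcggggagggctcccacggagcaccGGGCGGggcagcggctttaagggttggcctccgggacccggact
Igfbp5 (chr1:72874866-72875115, minus strand): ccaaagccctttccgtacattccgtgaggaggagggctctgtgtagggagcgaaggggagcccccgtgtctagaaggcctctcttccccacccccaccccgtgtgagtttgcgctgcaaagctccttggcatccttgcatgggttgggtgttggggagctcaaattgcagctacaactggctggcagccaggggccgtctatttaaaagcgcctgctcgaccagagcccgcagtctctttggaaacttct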

How the data were processed

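RNA-seq libraries of the 3 groups were assigned from the sample titles. The authors deposited fragment counts per gene, which are not normalised. The file header names featureCounts 2.0.1, GENCODE release M25 and no strand option, and the submitters' processing notes add HISAT2 and build mm10. All 9 columns of counts were used.

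The main test used edgeR 4.0.16 under R 4.3.3 (filterByExpr, TMM, 1 mean per group over the 9 libraries, quasi-likelihood test, Benjamini-Hochberg adjustment over all genes tested). On simulated data the step left some changed genes uncalled, and it met the limit set for recovery with the random seed first used but fell just short with another. Ratios and shares were compared by exact permutation over libraries. Alternatives were DESeq2 1.42.0, RLE or library-size scaling, other count filters, other call rules, only the groups compared, a replicate block and each library left out. Listed genes were named by level (the 3 highest of each list), by largest called rise and fall, or as standing members of the axis. Adam12, Inppl1 and Igfals were also among the 3 highest of their lists and are not described. The 10 genes and all lists were chosen with earlier results of these data known. Figures were drawn with matplotlib 3.10.9.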

Additional observations from a re-analysis of the deposited data

How the results depend on the processing

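Of 162 recomputed counts of called genes, 153 stayed within 1.5 times the reported count. The exceptions all concern rSRGN-treated cells. For hypoxia + rSRGN against hypoxia, the count over all genes was 525 and became 899 with the unadjusted p and 2790 without the fold limit, where 4 of the 10 genes and 16 pathway genes were called. For hypoxia + rSRGN against control, 53 pathway genes were called without the fold limit, beside 34. With each library left out, the count over all genes for hypoxia + rSRGN against hypoxia ran from 321 to 699, and that of pathway genes from 0 to 5. Looser rules call more genes by construction, and the cause of the other shifts was not tested. Of 480 recomputed log2 fold changes of the 10 genes, 468 kept direction and call, and the same 8 genes were called in both comparisons with control under DESeq2, RLE scaling and library size alone. Irs1 lost its call for hypoxia against control without 2 libraries (range 0.50 to 0.79). Signs turned only for differences that were not called: Igf1r for hypoxia against control (-0.025 with a filter of at least 1 count, -0.02 to 0.083 with a library left out), and for hypoxia + rSRGN against hypoxia Igfbp3 (-0.07 to 0.11), Irs1 (-0.03 to 0.26), Igfbp7 (-0.184 to 0.082) and Igfbp2 (-0.003 to 0.061). Of 210 recomputed shares and ratios, 11 turned sign, all of shares. Without division by length, the share of Igfbp3 was 0.116 percentage points higher in hypoxia and 0.230 higher in hypoxia + rSRGN than in control, and that of Igfbp2 0.285 higher in hypoxia + rSRGN than in control. With a library left out, the differences ran from -0.105 to 0.0208 for Igfbp3 in hypoxia + rSRGN against control, and against hypoxia from -0.422 to 0.251 for Igfbp4, from -0.113 to 1.27 for Igfbp2 and from -1.50 to 0.481 for Igfbp7. The exact test cannot pass 0.05 with these group sizes, so shares show direction only.

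With the replicate block, 8550, 495 and 8096 genes were called in the 3 comparisons, 8, 0 and 8 of the 10 genes, and 39, 2 and 34 pathway genes. Libraries with the same number did not deviate together (correlations from -0.037 to 0.021). With 3 libraries per group this cannot show whether the numbers pair cultures. Irs3 and Igfbpl1 had at most 26 and 43 counts in a library.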
